A study of Arabidopsis thaliana with 2 samples.

Results

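Plants make small RNAs with a shared set of proteins, and 10 of their genes in Arabidopsis thaliana were looked up in RNA-seq data of wild-type and ago1-36 seedlings: the Dicer-like nuclease genes DCL1, DCL2, DCL3 and DCL4, the microRNA processing partners HYL1 and SE, the methyltransferase HEN1, the export factor HST, and the RNA polymerase RDR6 with its partner SGS3. They were picked by identifier, with no threshold on their values. The authors' deposited table held 4 of these 10 genes, DCL1, DCL4, SE and SGS3, among 11666 genes in all, and all 4 passed the minimum of 1 RPKM (reads scaled to gene length in kilobases and to 1000000 reads) in at least 1 library. DCL2, DCL3, HYL1, HEN1, HST and RDR6 were not analysed here. The table held few genes with slightly higher RPKM in ago1-36, 38 of them between log2 ratios of 0.1 and 0.3 where 1381 lay between -0.3 and -0.1, so the absence of a gene cannot be read as no difference or as no expression.

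Whole wild-type seedlings and whole seedlings carrying the ago1-36 mutation in ARGONAUTE1 (AGO1) were both grown for 12 days on Murashige and Skoog plates with 3% sucrose at 23 °C, with 16 h of light and 8 h of dark. Each genotype gave 1 library, of about 13675000 reads for wild-type and 13595000 for ago1-36. The lesion of the ago1-36 allele, the parental accession and the number of seedlings pooled are not given in the labels. There was no replicate, so every difference is one between these 2 libraries, and the intervals cover counting error only.

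In plants, DCL1 cuts microRNAs out of folded precursor transcripts in the nucleus, guided by the zinc-finger protein SE (SERRATE) and the double-stranded RNA-binding protein HYL1. HEN1 then methylates the duplex, HST takes part in its export, and AGO1 carries the microRNA to target transcripts. In the trans-acting siRNA branch, SGS3 protects a transcript cut under microRNA guidance, RDR6 copies it into double-stranded RNA, and DCL4 dices the product together with its partner DRB4. DCL1 transcripts are themselves a target of miR162, which AGO1 uses, and SE is a reported target of miR863-3p in Arabidopsis. These sites are shown here because DCL1 and SE are measured members that carry them. In the microRNAs the capitals mark the seed (bases 2 to 8), and in the sites they mark bases in A:U or G:C pairs with the microRNA. G:U pairs are left in small letters and counted as unpaired throughout.

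miR162a: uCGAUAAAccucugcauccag
DCL1 site, longer annotated mRNA: CUGGAUGCAGAGGUaUUAUCGA
DCL1 site, shorter annotated mRNA: CUGGAUGCAGAGGUUguauuA
miR863-3p: uUGAGAGCaacaagacauaau
SE site: AUUAUGUCUUGUUcCUCcCAA

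All were read 5′ to 3′ from the RefSeq TAIR10.1 genome and annotation, where miR162a lies on chromosome 5 (chr5:2634936-2634956, minus strand), with the same mature sequence annotated for miR162b. In the DCL1 mRNA of 6276 bases, all 21 bases of miR162 can pair with a 22-base stretch if base 15 of the site, an A, is left as a bulge. That stretch lies in coding sequence and crosses the junction of exons 12 and 13, with 12 bases in exon 12, which ends at position 27533 of chromosome 1, and 10 bases in exon 13, which starts at position 27618. In the annotated mRNA of 5877 bases exon 12 ends at position 27536 instead. The extra bases enter the site, and its best match then leaves 5 of 21 bases unpaired, or 3 with a bulge. Among 31346 genes with an annotated mRNA, DCL1 alone (0.00319%) paired with every base of miR162 when exactly 1 bulged base was required. The next best were 4 genes with 3 unpaired bases. Without a bulge DCL1 left 5 bases unpaired, in its shorter mRNA. The longer mRNA, which holds the full bulged match, left 6. Of the genes scanned, 132 (0.421%, DCL1 included) left 5 or fewer, and 12 of them left 4. The 3 other measured members left 6 bases unpaired when 1 bulged base was required. The miR863-3p match in SE leaves 2 of 21 bases unpaired without a bulge, the fewest of any gene scanned under that rule (0.00319%), and lies in the 3′ untranslated part of exon 12 (chr2:11576469-11576489, plus strand). When exactly 1 bulged base was required, SE left 3 unpaired, 18 genes left that many or fewer (0.0574%, SE included), and 4 of them left 2. That rule leaves out matches without a bulge, so it is a different rule and not a looser one. A match is a description of letters. Reads are given per gene in the table, so cutting at either site and the choice between the DCL1 mRNAs were not analysed here.

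The mutated gene itself, AGO1 (AT1G48410), goes with the labels, at 48.6 RPKM for wild-type (2353 reads) and 5.59 RPKM for ago1-36 (269 reads).

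Among the measured members, the siRNA gene SGS3 stood at a clearly higher level in ago1-36. Both Dicer-like genes, DCL1 and DCL4, were higher and SE was lower, all 3 by under 2-fold. Which of DCL1, DCL4 and SE differed most depends on the scale, as the authors' log2 fold changes were 0.26, 0.34 and -0.36. On log2(RPKM + 1), the scale used for counting, 1 of 4 members, SGS3, was higher by 2-fold or more (19.6% of the 11373 genes that passed the minimum were) and 0 of 4 were lower by that much (8.38% of those genes). The plain RPKM ratio gave the same counts of 1 and 0, beside 23.9% and 11.9% of all genes that passed. With 4 genes this count says nothing about the machinery as a group. The median log2 ratio of the 4 was 0.41, against -0.04 for all genes that passed. The shares and both medians describe listed genes only, not all expressed genes, and slightly higher genes are scarce among those listed.

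**Figure D1:**
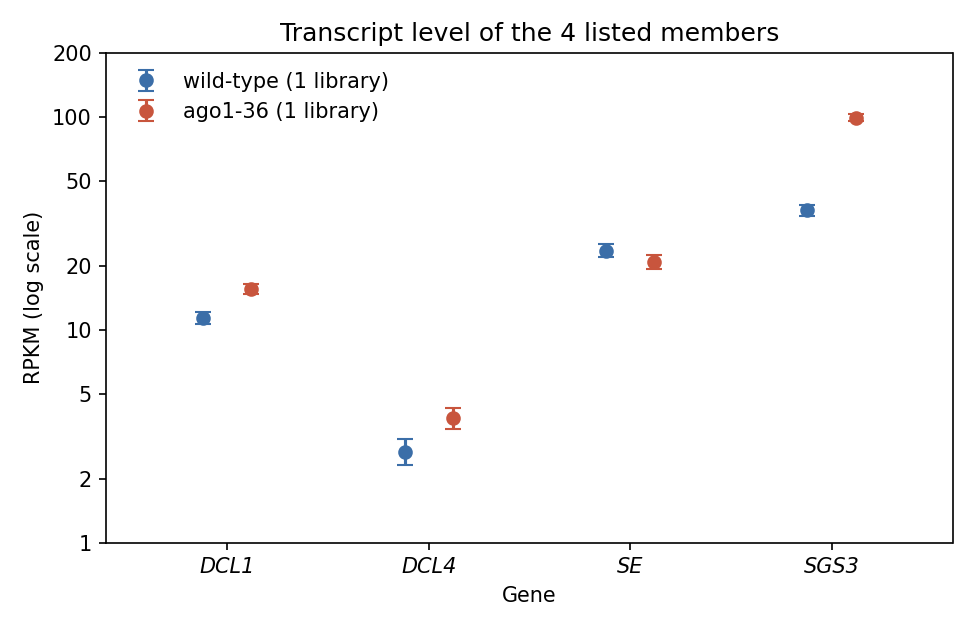
Level of the 4 listed members in each library, in RPKM on a log axis. Points are single libraries (blue wild-type, red ago1-36) and bars are 95% exact Poisson counting intervals; the largest gap between libraries is that of SGS3, at 36.4 and 99.5 RPKM, and the bars of SE overlap.

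DCL1 (AT1G01040, chr1:23121-31227, plus strand in TAIR10.1) encodes the main microRNA-producing Dicer. It had 11.4 RPKM in the wild-type library (95% exact Poisson counting interval 10.7 to 12.1, 974 reads). In the ago1-36 library it had 15.5 RPKM (interval 14.7 to 16.4, 1321 reads). The higher level was in ago1-36, and the counting intervals did not overlap. Genes with slightly higher RPKM in ago1-36 are scarce in the list, so intervals that lie apart were partly set by being listed. The plain RPKM ratio was 1.36 (95% counting interval 1.25 to 1.48), and the log2 ratio with 1 RPKM added was 0.42, above 56.0% of all genes that passed the minimum. By the level of RPKM, DCL1 sat near the middle of those genes, above 48.3% of them in wild-type and 52.0% in ago1-36.

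DCL1 was also the only member within the opening block of the authors' deposited table, 45 genes sorted apart from the rest without a stated meaning. By the fold change in the authors' deposited table DCL1 was at 0.26 (log2) and ranked 19 from the lowest of the 45. The block's median in the authors' deposited table was 0.36. On the RPKM + 1 scale 13 of the 45 were at least 2-fold higher and 1, AGO1, was at least 2-fold lower, beside 19.6% and 8.38% of all genes that passed.

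Other transcripts arise from the DCL1 locus. The microRNA gene MIR838 lies in intron 14 of DCL1 on the same strand (mature miR838 at chr1:28635-28655). DCL1 is known to process this microRNA out of its own transcript, and the mature sequence is shown because that transcript is its source.

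miR838: uUUUCUUCuacuucuugcaca

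MIR838 and the antisense gene AT1G03993 at the start of DCL1 were not analysed here. The end of DCL1 overlaps the listed gene PPA1 (AT1G01050), an inorganic pyrophosphatase gene on the opposite strand, by 58 bases. PPA1 stood at 17.3 RPKM in wild-type against 26.5 RPKM in ago1-36, a plain ratio of 1.53. The use of strand in counting is not stated, so reads of the overlap cannot be assigned to either gene, and the part of this overlap in the DCL1 ratio was not tested.

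The row of MIR162A (AT5G08185), a source of the microRNA that pairs with DCL1, stood at 2.80 RPKM in wild-type against 0.759 RPKM in ago1-36. These came from 26 and 7 reads, so the plain ratio of wild-type over ago1-36, 3.69, has a wide counting interval of 1.56 to 10.1. MIR162A passed the minimum through wild-type alone, so its direction was set by the filter. The length behind this row, recovered as 678 bases, is longer than the annotated hairpin of 140 bases, so its reads describe a longer primary transcript and not mature miR162. The hairpin is shown as the substrate that DCL1 cuts, with the mature microRNA in capitals (chr5:2634905-2635044, minus strand, as DNA).

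MIR162A hairpin: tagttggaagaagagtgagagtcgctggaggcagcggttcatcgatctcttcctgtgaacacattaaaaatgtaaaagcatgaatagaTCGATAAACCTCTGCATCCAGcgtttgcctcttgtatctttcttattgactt

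SE (AT2G27100, chr2:11572397-11576658, plus strand), the zinc-finger partner of DCL1 that also acts in splicing, had 23.6 RPKM in the wild-type library (interval 22.0 to 25.3, 806 reads). In the ago1-36 library it had 20.8 RPKM (interval 19.3 to 22.4, 708 reads). The intervals of the libraries overlapped, and the wild-type value was the higher. The plain RPKM ratio of ago1-36 over wild-type was 0.884 (95% counting interval 0.798 to 0.979). The log2 ratio was -0.17 on the scale with 1 added, above 43.3% of all genes that passed the minimum. The ratio's interval lay just below 1, and the spread between seedlings is unknown.

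The gene of the microRNA that pairs with SE, MIR863 (AT4G13494), stood at 5.31 RPKM in wild-type against 1.21 RPKM in ago1-36, from 22 and 5 reads. The plain ratio of wild-type over ago1-36, 4.37, has a wide counting interval of 1.62 to 14.8. A link between this row and the SE ratio was not tested. MIR863 overlaps the listed non-coding gene AT4G13495 on the same strand by 178 bases, so its reads are uncertain.

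DCL4 (AT5G20320, chr5:6859212-6869307, minus strand), the Dicer of trans-acting siRNAs, had the lowest level of the 4 members. Wild-type gave 2.67 RPKM (interval 2.32 to 3.06, 208 reads). The ago1-36 library gave 3.84 RPKM (interval 3.42 to 4.31, 298 reads). The ago1-36 value was higher and the intervals did not overlap. As for DCL1, that separation was partly set by being listed. The plain ratio was 1.44 (95% counting interval 1.20 to 1.73). The log2 ratio was 0.40 on the scale with 1 added, above 55.5% of all genes that passed the minimum. Its ratio could not be told apart from that of DCL1 within counting error.

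SGS3 (AT5G23570, chr5:7942908-7946147, plus strand), which stabilises cut transcripts for copying by RDR6, had the highest level and the largest difference of the 4 members. It had 36.4 RPKM in the wild-type library (interval 34.3 to 38.7, 1069 reads). In the ago1-36 library it had 99.5 RPKM (interval 95.9 to 103, 2901 reads). The plain ratio was 2.73 (95% counting interval 2.54 to 2.93) and the log2 ratio 1.42 on the scale with 1 added, above 88.6% of all genes that passed the minimum. No annotated gene overlaps SGS3 in TAIR10.1, and the same holds for SE and DCL4.

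The order of levels in RPKM was SGS3, SE, DCL1, DCL4 from high to low in both libraries, and neighbours in that order did not overlap in their counting intervals. The distances changed. SGS3 stood 3.20-fold above DCL1 in wild-type and 6.40-fold above it in ago1-36, and 13.7-fold and 25.9-fold above DCL4. SE stood 2.07-fold above DCL1 in wild-type and 1.34-fold in ago1-36. DCL1 stood 4.27-fold above DCL4 in wild-type and 4.04-fold in ago1-36, so the Dicer-like pair kept nearly the same proportion.

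In the authors' deposited table the log2 fold changes were 0.26 for DCL1, 0.34 for DCL4, -0.36 for SE and 1.26 for SGS3. The GFOLD scores of the authors' deposited table, conservative versions of the fold change, were 0.12, 0.04, -0.19 and 1.14 in the same order. The absolute score of SGS3 exceeded that of 84.0% of the listed genes, whereas that of DCL4 exceeded 6.90%. The authors' fold changes lie lower than the log2 RPKM ratio by 0.18 to 0.19 for these members, and their median over all genes that passed is -0.23. With such an offset, the range of log2 ratios where listed genes are scarce, 0.1 to 0.3, lies around 0 on the authors' scale. A value of 0 thus does not mark the same difference on both scales. On that scale, too, 1 of 4 members was past 2-fold upward and 0 downward, beside 19.8% and 15.7% of all genes that passed, a split of 55.7% upward where the RPKM + 1 scale gives 70.0%.

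**Figure D2:**
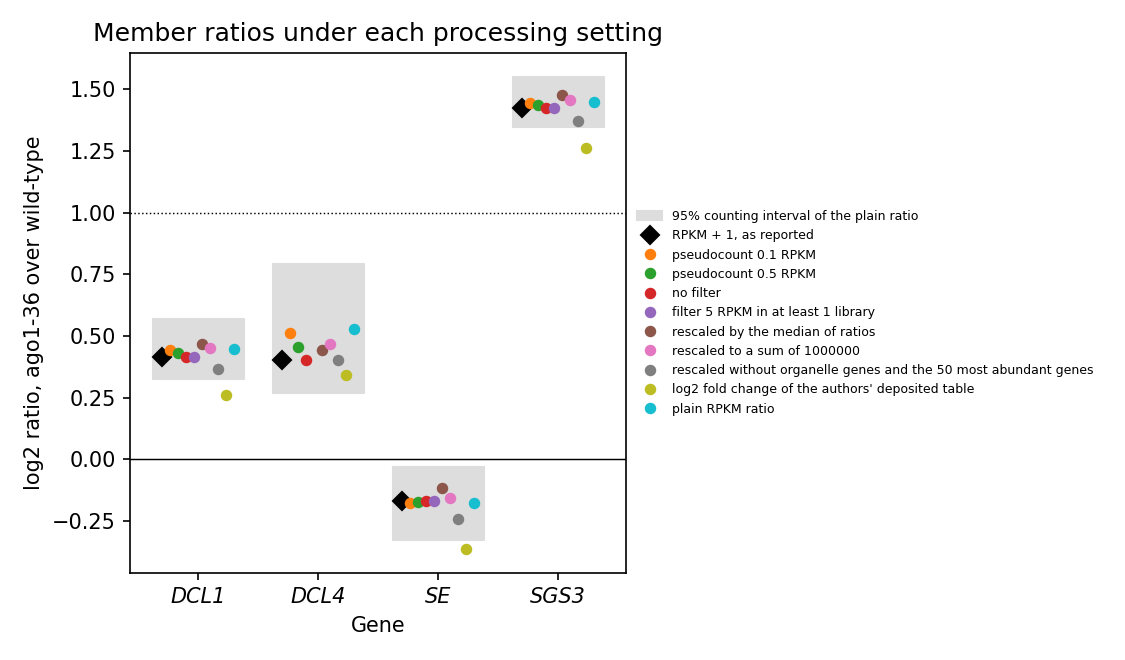
Log2 ratio of ago1-36 over wild-type for each measured member under each processing setting. Black diamonds are the reported RPKM + 1 values, coloured points the alternatives and grey boxes the 95% counting intervals of the plain ratio. Each member keeps its sign, which only the rescalings and the authors' fold change could have changed. SGS3 alone lies above the dotted 2-fold line, from 1.26 to 1.48.

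Of 47 other genes of small RNA production, turnover and use, chosen by function, 23 were in the table and 22 passed the minimum. With 1 RPKM added, 0 of these were 2-fold or more above wild-type and 1 was 2-fold or more below it, beside 19.6% and 8.38% of all genes that passed. The median log2 ratio of the 22 was -0.09. The other 24 were not analysed here.

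Partners of the Dicer-like proteins went both ways. DRB3, a double-stranded RNA-binding protein of the same family as HYL1, was the lower gene, at 17.3 RPKM in wild-type against 4.08 RPKM in ago1-36. Its plain ratio of wild-type over ago1-36 was 4.23 (95% counting interval 3.37 to 5.36, from 396 and 93 reads). Its relative DRB5 had 15.9 and 14.2 RPKM. DRB4, the partner of DCL4, stood at 8.20 RPKM in wild-type against 14.5 RPKM in ago1-36, a plain ratio of 1.77 (interval 1.44 to 2.18). DRB4 and DCL4 were thus both higher by under 2-fold.

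The 9 microRNA processing cofactors in the table ranged in log2 ratio from -1.85 for DRB3 to 0.92 for RTL1, with a median of -0.16. RTL1, an RNase III that destroys siRNA precursors, had only 2 reads in wild-type and 15 in ago1-36. It reached the minimum in ago1-36 alone, so its direction was set by the filter. The nuclear cap-binding subunit CBP20 (70.0 and 72.2 RPKM) was nearly equal in both libraries.

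In the siRNA amplification list, to which SGS3 belongs by function, DRB4 had the highest log2 ratio (0.75) and TEX1, a subunit of the THO/TREX complex, the lowest (-0.40, 15.1 and 11.2 RPKM). SDE5, which acts with RDR6 and SGS3, had 3.27 and 5.39 RPKM, a plain ratio of 1.65 (interval 1.25 to 2.18). None of the 3 that passed the minimum reached the difference of SGS3, and RDR4, also listed, stayed below 1 RPKM in both libraries.

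Genes that degrade or tail small RNAs had a median log2 ratio of -0.03 over 4 genes. SDN1, an exonuclease that degrades small RNAs, was the highest (0.79 with 1 added, plain ratio 2.36 from 20 and 47 reads). URT1, a uridylyltransferase, was the lowest (-0.19, 34.9 and 30.4 RPKM). In the RNA-directed DNA methylation list DRM2, a DNA methyltransferase, was at 0.59 and CLSY1, a chromatin remodeller, at -0.43. The AGO1 loading and transport genes EMA1 (-0.10) and SUO (-0.16), and the decay enzyme XRN4 (-0.18), all had slightly lower values in ago1-36.

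**Figure D3:**
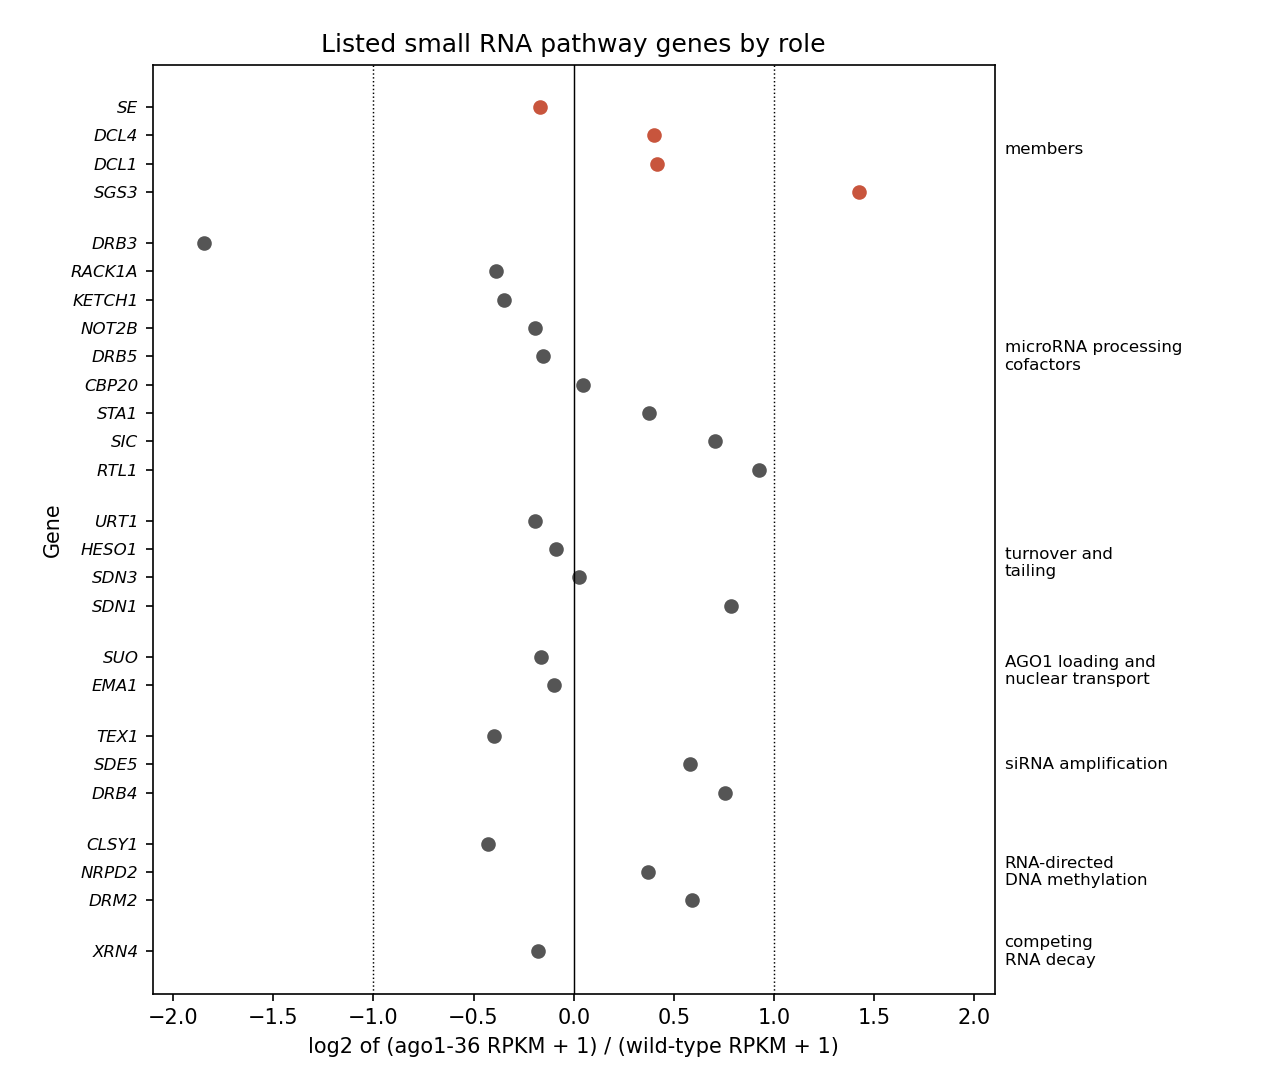
Log2 ratio with 1 RPKM added for the 4 measured members (red) and the 22 other small RNA genes that passed the minimum (grey), grouped by role; dotted lines mark 2-fold. SGS3 at 1.42 lies beyond the upper line and DRB3 at -1.85 beyond the lower one.

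Markers of tissues within a whole seedling differed as well, and their part in the member ratios was not tested. Of all 11373 genes that passed the minimum, 5852 were lower in ago1-36, 8.38% were at least 2-fold lower and 19.6% at least 2-fold higher. Leaf photosynthesis genes were lower in ago1-36 in 6 of 6 cases, 2 of them at least 2-fold (RCA and LHCB3, log2 ratios -1.63 and -1.26). Their summed level was 21672.5 RPKM in wild-type against 10514.9 RPKM in ago1-36. RCA alone gave 11210.7 and 3617.66 RPKM of these sums, and 4 of the 6 genes were lower by under 2-fold. Genes of roots and root hairs were lower for all 4 that were listed of 6, 3 of them at least 2-fold (PRP3 and LRX1 leading at -2.60 and -2.29, LRX1 having passed the minimum through wild-type alone), with sums of 49.3 and 18.4 RPKM. The cell division genes CYCB1;2 and KN, the 2 listed of 6, were lower by under 2-fold (-0.83 and -0.76), with sums of 106 and 61.3 RPKM. Seed and embryo genes summed to 0.448 RPKM in wild-type, where SESA3 and EM1 had 0 reads, and to 58.5 RPKM in ago1-36. All 5 of them passed the minimum in ago1-36 alone, so their direction was set by the filter. CRC and CRA1 led with log2 ratios of 4.58 and 4.46. In whole seedlings, fewer cells of a type and less RNA per cell cannot be told apart.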

How the data were processed

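Per the labels' protocols, total RNA went into SMART libraries. The submitters' processing notes name TopHat2 2.0.11 and TAIR10. Neither the counting tool nor its annotation or strand setting is given in the sources used here. The authors' deposited table gives RPKM per gene and library and, as log2 values, a fold change and a GFOLD score. Of 11957 gene lines, 291 repeats were dropped. A GFOLD score of 0 occurs for 0 genes, so every share of all genes that passed is a share of a list without such genes.

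The authors' log2 fold change equals the log2 ratio of reads plus 1, less 0.17662. With both RPKM values it fixes whole reads, library totals and counted lengths. A single pair of whole reads matched all deposited digits in 11257 genes (96.5%), 370 had several matches and 39 none. The steps were tested on simulated data. Intervals are exact (Clopper-Pearson for ratios, Poisson for levels) at 95%, and PCR copies are not independent molecules.

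Differences are log2 of RPKM + 1, at 1 RPKM or more in 1 library, and counted at 2-fold. Without replicates there is no p-value. Members and lists were chosen with earlier results of these data known. Named were the members, AGO1, each list's highest, lowest and any gene past 2-fold, and 2 markers a list. Further genes (DRB5, DRB4, CBP20, SDE5, RDR4, SESA3, EM1, MIR162A, MIR863 and PPA1) were chosen after their values were seen. With 1 ratio per gene, no genes of like pattern are named. Python 3.11.15, SciPy 1.17.1 and Matplotlib 3.10.9 were used.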

Additional observations from a re-analysis of the deposited data

How the results depend on the processing

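The alternatives were a pseudocount of 0.1 or 0.5, a minimum of 5 RPKM or none, 3 rescalings, the plain RPKM ratio and the fold change (log2) in the authors' deposited table. Leaving out members that overlap a listed gene was added after the data were seen. SGS3 was the single member past 2-fold under each of them, and DCL1, DCL4, SE and SGS3 kept their signs (DCL4 could not be counted under the minimum of 5 RPKM). Only the rescalings and the authors' fold change could have changed a sign. A pseudocount, a minimum or the plain ratio keeps it by construction. Values outside the counting interval came from the authors' deposited table, on its log2 scale: 0.26 for DCL1, -0.36 for SE and 1.26 for SGS3. The median of the other pathway genes was -0.28 on that scale, against -0.09 as reported. This median has no counting interval of its own. It was set against the medians of the single genes' limits, -0.23 and 0.05. That scale also gave 1791 genes at least 2-fold lower against 953. Pathway genes at least 2-fold higher, 0 as reported, were 2 with a pseudocount of 0.1, by the plain ratio and by the authors' fold change, and 1 with a pseudocount of 0.5, rescaled to a sum of 1000000 and rescaled without the 50 most abundant and the organelle genes. RTL1 and SDN1 have few reads, which limits their precision. No paired analysis was possible because each genotype has 1 library. No replicate could be left out for the same reason.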

Other observations

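Pairing of the members with all annotated microRNAs was scanned without a bulge, over 335 mature microRNA names of 20 to 22 bases. DCL1 had a match with 3 unpaired bases to miR414 and to miR775, neither of which is the microRNA usually named for it. SE had its closest match to miR863-3p. The fewest unpaired bases were 4 for DCL4 (miR5021) and 5 for SGS3, shared by miR156a-5p, miR782 and miR838, the last of which lies in an intron of DCL1. Of the members outside the table, DCL2 and HST reached 4, and DCL3, HYL1, HEN1 and RDR6 reached 5. These counts describe letters, and no reads bear on them.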
